A study of Homo sapiens with 4 samples.

Results

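NFE2L2, which encodes the transcription factor NRF2, and 8 genes known as its antioxidant targets (GCLC, GCLM, TXN, TXNRD1, PRDX1, SRXN1, NQO1 and HMOX1) were followed through 4 single-cell RNA libraries. The 9 members were taken by symbol from 37468 genes in the count files, with earlier results of these data known. All 9 were present in every library. The cells were MSTO-211H, an established human pleural mesothelioma line labelled wild type, grown in suspension in serum-free RPMI with heparin, EGF, bFGF and the supplement SM1. Control received vehicle, Radiation received vehicle and 4 Gy, Drug received 10 µM of a compound named only as QTP, and Drug_Radiation received 10 µM QTP and, on the following day, 4 Gy. Cells were collected 48 h after irradiation. The series title places the work under dopamine receptor inhibition combined with radiotherapy. Each group was 1 library from a single line, so no difference between groups has a replicate check, and no test across genes was made.

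NRF2 is held low in resting cells because KEAP1, a sensor rich in reactive cysteines, passes it to a CUL3 ubiquitin ligase for degradation. Electrophiles and oxidants modify KEAP1, NRF2 then builds up, pairs with a small MAF protein and binds antioxidant response elements near its target genes. The targets make glutathione (GCLC, GCLM), run the thioredoxin cycle (TXN, TXNRD1, PRDX1, SRXN1), reduce quinones (NQO1) and break down haem (HMOX1). NRF2 is controlled mainly at the level of protein stability, so the mRNA of NFE2L2 is not a measure of its activity.

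Levels are UMIs (unique molecule counts) added up over all cells kept from a library, scaled to its nuclear-encoded total and given in the usual unit CPM. The libraries differed in depth: they held 3183, 2425, 3802 and 6990 cells in the order Control, Radiation, Drug and Drug_Radiation, with medians of 2318, 5299, 20405 and 18025 UMIs per cell, and no barcode was shared between any pair of libraries. The cells expressed VIM, KRT8 and KRT18 at 1786 to 4661 CPM in every library. Of 11 mesothelial markers, CALB2 ranged from 27.6 to 49.2 CPM and MSLN from 8.27 to 14.05 CPM, WT1 was below 2 CPM, and UPK3B, LRRN4, PDPN, KRT5, KRT19 and ITLN1 were at or near 0. Leukocyte markers summed to 0.279 to 0.559 CPM and endothelial markers to 0.628 to 1.10 CPM. Fibroblast markers summed to 22.0 to 33.0 CPM, most of it LUM. The ratio between 2 libraries is given as log2 of CPM plus 1. The median of that ratio over all genes at 20 CPM or more was itself not 0 (0.50 and 0.13 for QTP, in the arms without and with radiation, 0.18 and -0.18 for radiation, in the arms without and with QTP, and 0.33 for both agents against Control), so a "relative" ratio has this median subtracted. A gene is called higher or lower where the relative ratio is at least 1.5-fold. Intervals are at 95% and cover counting error only.

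Over all cells, the members differed in direction between the libraries with and without QTP. TXNRD1 was lower with QTP in both arms, TXN was lower in the arm without radiation, HMOX1 was higher in that arm, and NFE2L2, PRDX1 and NQO1 stayed within 1.5-fold. In cells of 6500 to 15000 UMIs, a depth present in all 4 libraries, TXNRD1 was still lower in both arms, the call of TXN was lost (-0.47), and HMOX1 in the arm without radiation was past 1.5-fold in the lower direction (-0.72). That range lies above the median depth of Control and Radiation and below that of Drug and Drug_Radiation. It held 173 of 3183 Control cells and 1023 of 3802 Drug cells. Median depths inside it still differed, at 7775, 8566, 10833 and 11462 UMIs in Control, Radiation, Drug and Drug_Radiation. TXNRD1 holds an uncounted processed pseudogene on its own strand, and whether this alters its counts was not tested. Of 6 members at 20 CPM or more, 1 was called higher and 2 lower for QTP without radiation, where 5.93% of all 5546 genes were called higher and 8.55% lower. For QTP with radiation 0 were called higher and 1 lower, against 4.12% and 3.47% of 5239 genes. The median relative ratio of the 6 members was -0.30 without radiation and -0.14 with it, beside 0 for all genes by construction. GCLC, GCLM and SRXN1 were below 20 CPM in every library and are outside these counts. Both QTP comparisons use different libraries, but depth per cell was higher with QTP in both, and with 1 library per group the library and the treatment cannot be told apart.

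**Figure D1:**
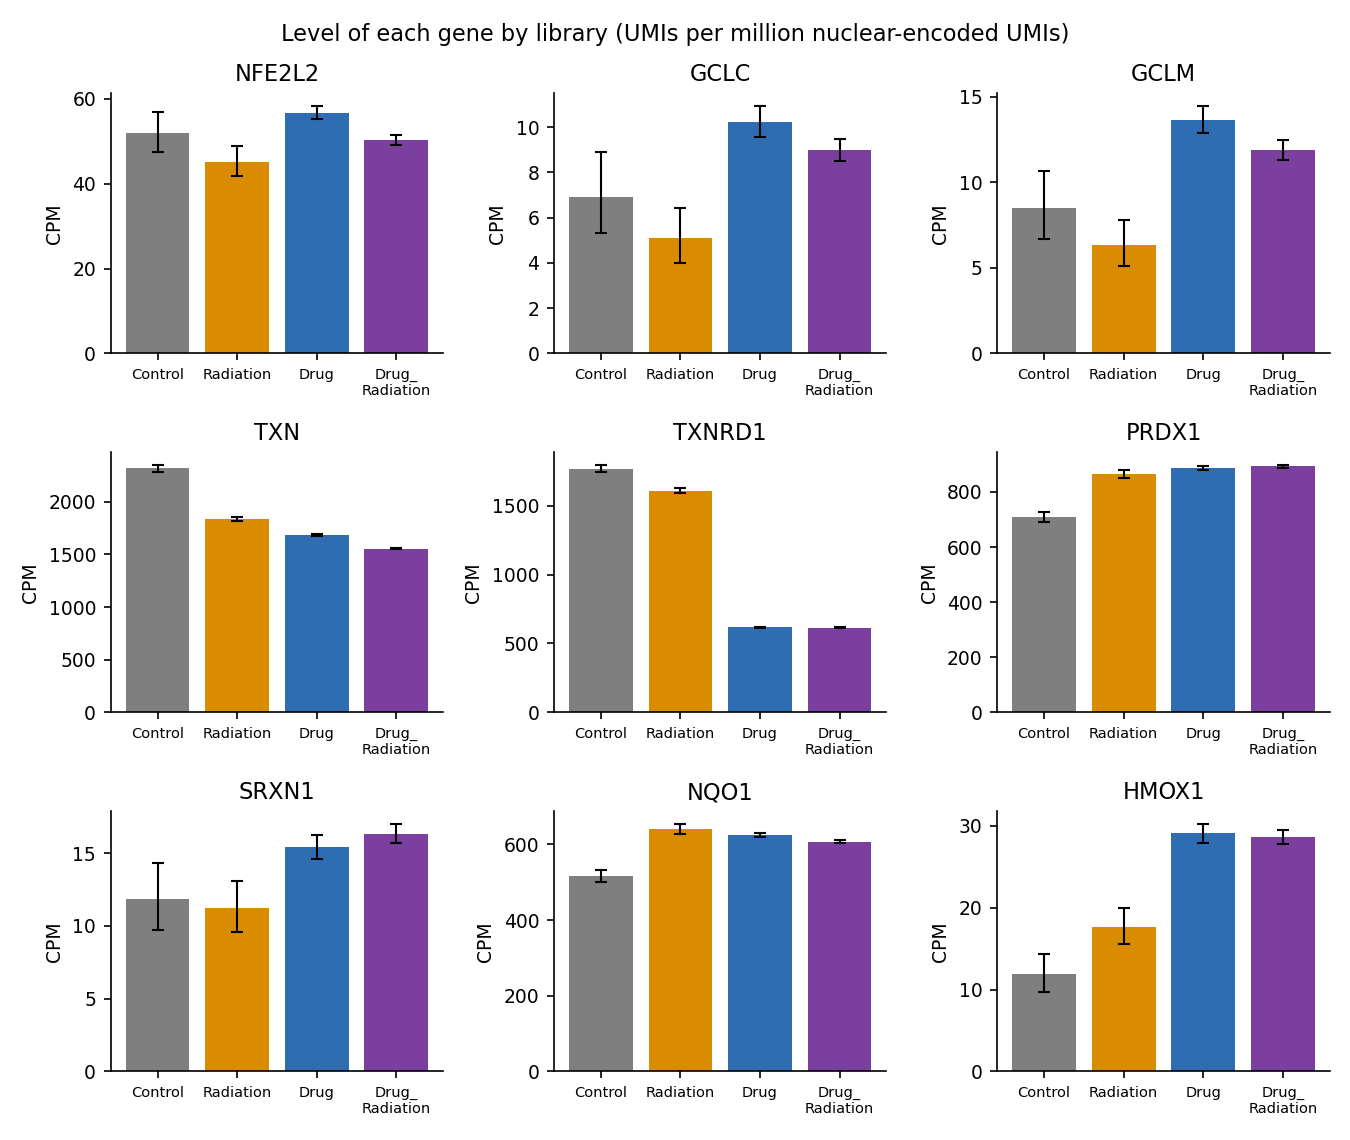
Level of each member in each library, in CPM of nuclear-encoded UMIs, with 95% counting intervals as bars. TXNRD1 stood at 1767 and 1609 CPM without QTP and at 617 and 613 CPM with it, while HMOX1 went from 11.8 and 17.7 CPM to 29.1 and 28.6 CPM.

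NFE2L2 was at 52.1 CPM in Control and 45.2 in Radiation, against 56.8 in Drug and 50.4 in Drug_Radiation. The order was Drug, Control, Drug_Radiation, Radiation, and the intervals of the first 3 overlapped from neighbour to neighbour. Its relative ratio for QTP was -0.38 without radiation and 0.02 with it. Before the median was subtracted the first of these was 0.12 (-0.01 to 0.26), so its sign depended on the scaling. Radiation gave -0.38 without QTP and 0.01 with QTP. NFE2L2 lies on GRCh38 chr2:177227595-177392697, minus strand, and its annotated span overlaps 6 other counted genes, of which AGPS on the opposite strand was the most abundant at 14.6 to 18.9 CPM. The counting rule for overlapping genes is not given in the sources used here.

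GCLC and GCLM encode the catalytic and modifier subunits of glutamate-cysteine ligase, the rate-limiting enzyme of glutathione synthesis. GCLC (chr6:53497341-53616970) was at 6.93, 5.09, 10.2 and 8.97 CPM in Control, Radiation, Drug and Drug_Radiation. GCLM (chr1:93885205-93909456) was at 8.49, 6.35, 13.7 and 11.9 CPM in the same order. Both subunits ran in the same order over the libraries, Drug highest and Radiation lowest. For GCLC the intervals of Drug_Radiation and Control overlapped, as did those of Control and Radiation; for GCLM only those of Control and Radiation did. The QTP ratio of GCLM, before the median was subtracted, was 0.63 (0.35 to 1.04) without radiation and 0.81 (0.60 to 1.22) with it. Relative to all genes it was 0.13 and 0.68, so over all cells most of its difference without radiation was also the difference of the median gene. GCLC gave relative ratios of 0.00 and 0.58. Control held 62 UMIs of GCLC and 76 of GCLM, which sets the width of these intervals. In the depth range present in every library, GCLM was at 18.3 CPM in Drug and 6.49 in Control, on 9 UMIs in Control. The log2 ratio there was 1.37 (0.54 to 2.65). Relative to all genes GCLM was at 1.13 without radiation and 0.82 with it in that range, and GCLC at 0.03 and 0.77. The cause of the larger GCLM ratio without radiation was not tested.

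TXN encodes thioredoxin, the small dithiol protein that reduces peroxiredoxins and ribonucleotide reductase. It was at 2318 CPM in Control and 1835 in Radiation, against 1688 in Drug and 1555 in Drug_Radiation. No neighbouring pair in that order had overlapping intervals. Its log2 ratio for QTP was -0.46 (-0.48 to -0.44) without radiation and -0.24 (-0.26 to -0.22) with it. Against the median gene these became -0.96 (1.94-fold lower, a call) and -0.37 (1.29-fold lower, no call). The first call was lost when the median was not subtracted. TXN (chr9:110243811-110256640) has 7 processed pseudogenes named after it in GENCODE 29, and none of them is counted in the files. Within Control its level was lower in deeper cells, at 2535, 2373 and 2231 CPM from the shallowest to the deepest tertile of cells, and in Drug it was 1838, 1741 and 1617 CPM. Radiation and Drug_Radiation ran the other way, from 1696 to 1890 CPM and from 1515 to 1565 CPM. In cells of 6500 to 15000 UMIs the relative QTP ratio of TXN was -0.47 without radiation and -0.32 with it, and neither reached 1.5-fold.

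TXNRD1 encodes cytosolic thioredoxin reductase, the selenium-containing enzyme that keeps thioredoxin reduced with electrons from NADPH. Its level was 1767 CPM in Control and 1609 in Radiation, against 617 in Drug and 613 in Drug_Radiation. Both libraries with QTP were far below both without it, and the intervals of Drug and Drug_Radiation overlapped. The log2 ratio for QTP was -1.52 (-1.54 to -1.49) without radiation and -1.39 (-1.41 to -1.37) with it. Relative to the median gene TXNRD1 was 4.05-fold and 2.86-fold lower, and only 1.89% and 1.32% of the genes tested had a relative ratio as low or lower. Within 3 libraries its level was lower in deeper cells, at 1701, 1659 and 1551 CPM from the shallowest to the deepest tertile in Radiation, 745, 644 and 566 in Drug and 724, 651 and 561 in Drug_Radiation, while Control was at 1743, 1807 and 1755. The libraries with QTP were the deeper ones. At neighbouring depths, the deepest tertile of Radiation (median 8810 UMIs per cell) was at 1551 CPM and the shallowest of Drug_Radiation (11044) at 724. What part depth has in the QTP difference was not tested. In cells of 6500 to 15000 UMIs the log2 ratios were -1.18 (-1.25 to -1.11) and -1.12 (-1.15 to -1.09), on 2403 UMIs in Control. After those cells were thinned to 6000 UMIs each, the median cell held 10 TXNRD1 UMIs in Control (173 cells) and 9 in Radiation (770), against 4 in Drug (1023) and 4 in Drug_Radiation (2533). The central 90% of cells ran from 5 to 15 UMIs in Control and from 1 to 8.9 in Drug, and 97.6% of Drug cells held at least 1.

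The TXNRD1 counts carry a possible limit from the annotation, whose effect was not tested. TXNRD1 (chr12:104215779-104350305, plus strand) holds an annotated processed pseudogene, a copy of the mRNA of another gene, inside its span and on its own strand. Of 10198 processed pseudogenes in GENCODE 29 the count files hold 11, and the one inside TXNRD1 is not among them. In a description chosen after the data were seen, genes holding an uncounted processed pseudogene on their own strand were set beside annotated genes holding none. For QTP without radiation 111 of 399 such genes (27.8%) were called lower, against 357 of 5131 (6.96%) of the rest. With radiation present the counts were 71 of 349 (20.3%) and 108 of 4875 (2.22%). Radiation without QTP gave 85 of 334 (25.4%) and 241 of 4469 (5.39%), and radiation with QTP gave 0 of 354 and 31 of 5202 (0.596%). Both agents together against Control gave 108 of 366 (29.5%) and 336 of 4863 (6.91%). The shares were thus higher for the genes with a pseudogene in the 4 comparisons whose first library was much the deeper per cell, and that depth cannot be told apart from the treatment.

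The 5 genes whose profile over the 4 libraries was nearest to that of TXNRD1, by Euclidean distance of centred log2 CPM over 5667 genes, were SLC35F1, LINC00174, CHCHD3, ARMC9 and STEAP1B. All 5 hold an uncounted processed pseudogene on their own strand, which 7.16% of the annotated genes at 20 CPM or more do. SLC35F1, the nearest, was at 318, 259, 116 and 105 CPM in Control, Radiation, Drug and Drug_Radiation. Of the other members, only NFE2L2 holds such a pseudogene, DNAJC19P5. The reads were not used here, and the part that read placement on these pseudogenes has in the TXNRD1 values was not tested.

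PRDX1 (chr1:45511036-45523047, minus strand) encodes a peroxiredoxin that removes hydrogen peroxide with electrons from thioredoxin. It was at 708, 865, 887 and 893 CPM in Control, Radiation, Drug and Drug_Radiation. Control was the lowest over all cells, and the intervals of Drug and Drug_Radiation overlapped. Its log2 ratio for QTP was 0.33 without radiation and 0.05 with it, and relative to the median gene -0.17 and -0.08, so its sign also turned with the scaling. Its level was higher in deeper cells of each library, from 547 to 779 CPM over the tertiles of Control and from 807 to 904 CPM in Drug. SRXN1 (chr20:646615-653370, minus strand) encodes sulfiredoxin, which repairs over-oxidised peroxiredoxins. Over all cells it was at 11.8, 11.2, 15.4 and 16.3 CPM, with the pair with QTP above the pair without it and overlapping intervals within each pair. Its QTP ratio before the median was subtracted was 0.35 (0.09 to 0.68) without radiation and 0.50 (0.31 to 0.78) with it, and the relative ratios were -0.15 and 0.37.

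NQO1 (chr16:69706996-69726951, minus strand), the quinone reductase often used to report NRF2 activity, was at 516 CPM in Control and 641 in Radiation, against 624 in Drug and 607 in Drug_Radiation. The 3 treated libraries lay above Control, and the intervals of Radiation and Drug overlapped. For QTP its log2 ratio was 0.27 (0.23 to 0.32) without radiation and -0.08 (-0.11 to -0.05) with it, and relative to the median gene -0.23 and -0.21. NQO1 too was higher in deeper cells, at 403, 499 and 556 CPM over the tertiles of Control and 567, 626 and 639 CPM over those of Drug. In cells of 6500 to 15000 UMIs its level was 581, 672, 548 and 574 CPM in Control, Radiation, Drug and Drug_Radiation.

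HMOX1 (chr22:35380361-35394214, plus strand) encodes haem oxygenase, which degrades haem to biliverdin, iron and carbon monoxide. It was at 11.8 CPM in Control (106 UMIs) and 17.7 in Radiation (253), against 29.1 in Drug (2535) and 28.6 in Drug_Radiation (4053). Both libraries with QTP were above both without it, and their intervals overlapped each other only. The log2 ratio for QTP was 1.23 (1.01 to 1.59) without radiation and 0.67 (0.51 to 0.89) with it. Relative to the median gene these were 0.73 (1.65-fold, a call) and 0.54 (1.45-fold, no call). HMOX1 also moved with depth inside single libraries: from the shallowest to the deepest tertile it was 6.95, 7.03 and 15.5 CPM in Control, 10.8, 19.9 and 18.7 in Radiation, 16.7, 25.2 and 34.6 in Drug and 23.2, 27.8 and 30.7 in Drug_Radiation. In cells of 6500 to 15000 UMIs it was at 23.1, 18.2, 16.2 and 23.1 CPM in the order Control, Radiation, Drug and Drug_Radiation. There its relative ratio for QTP without radiation was reversed and past 1.5-fold in the lower direction, at -0.72, on 32 UMIs in Control, and the ratio for QTP with radiation was 0.32. In that depth range HMOX1 was thus higher with QTP in the arm with radiation, at a log2 ratio of 0.33 (0.06 to 0.64), and not in the arm without it, at -0.48 (-1.06 to 0.08). The range sets deep cells of Control beside shallow cells of Drug, and what part this has in the reversal was not tested.

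**Figure D2:**
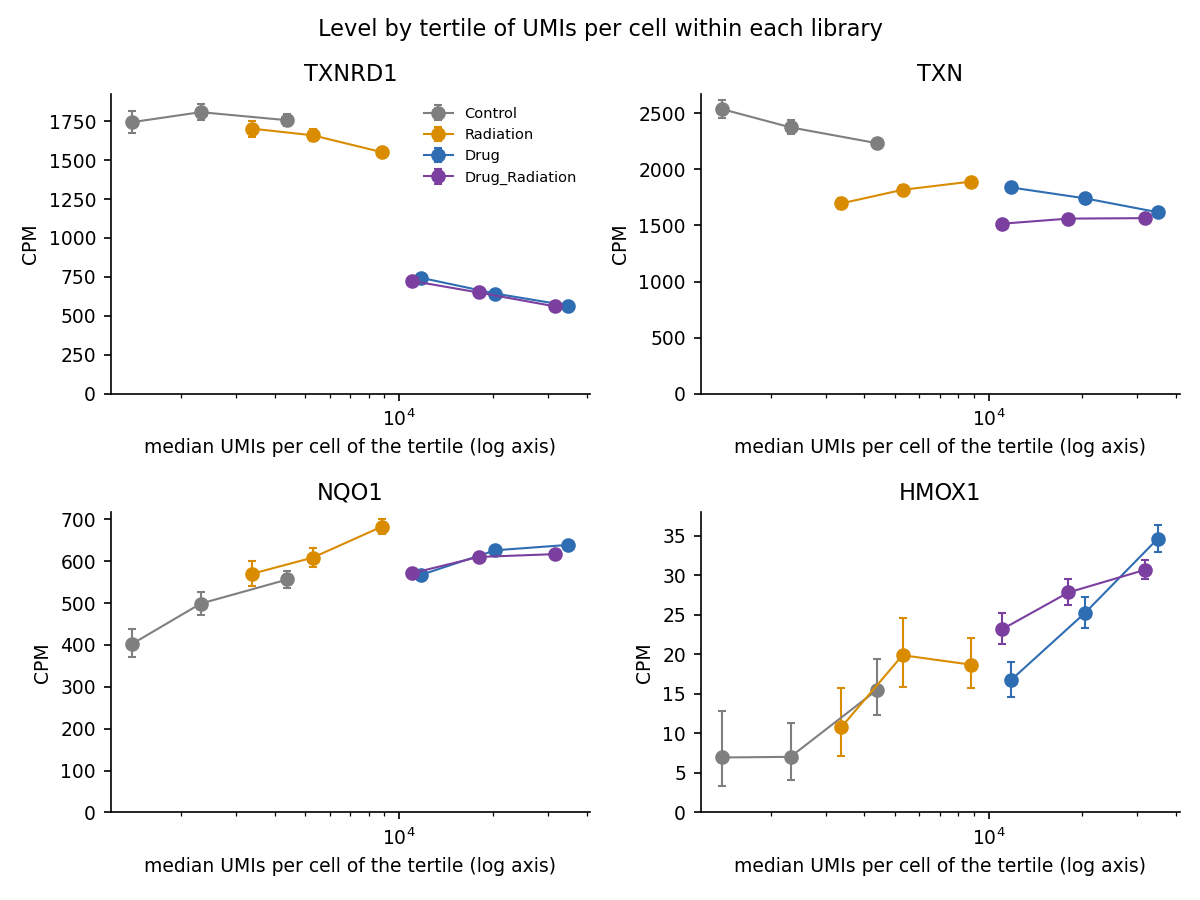
Level of TXNRD1, TXN, NQO1 and HMOX1 in CPM, with 95% counting intervals, in each tertile of cells by depth, against the median UMIs per cell of that tertile on a log axis. No tertile of a library with QTP has a median depth as low as one without it, so QTP and depth are aligned in these panels. HMOX1 goes from 6.95 to 15.5 CPM within Control and from 16.7 to 34.6 CPM within Drug.

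For radiation the members stayed within 1.5-fold in both arms over all cells. Of 5 members at 20 CPM or more, 0 were called higher and 0 lower without QTP, where 6.89% and 6.85% of 4818 genes were called. With QTP the counts were 0 and 0 of 6, against 1.6% and 0.557% of 5570 genes. Without QTP the relative ratios ran from -0.52 for TXN to 0.13 for NQO1, with TXNRD1 at -0.32, PRDX1 at 0.11 and HMOX1, below 20 CPM in both libraries, at 0.36 (0.06 to 0.73). With QTP they ran from 0.01 (-0.04 to 0.06) for NFE2L2 to 0.19 for PRDX1, and all 6 were above the median gene. That count depended on the setting: it was 5 with the stricter cell filter and 4 in cells of 6500 to 15000 UMIs. Without the median subtracted, 1 of the 6 was above 0. On the scale without the median subtracted, TXN fell by 0.34 and 0.12 and HMOX1 gave 0.54 and -0.02. HMOX1 reached 1.5-fold, at 0.64, for radiation with QTP in cells of 6500 to 15000 UMIs. Without QTP its relative radiation ratio in that range was below 0, at -0.39, on 32 UMIs in Control. The log2 ratio there was -0.33 (-0.91 to 0.27).

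**Figure D3:**
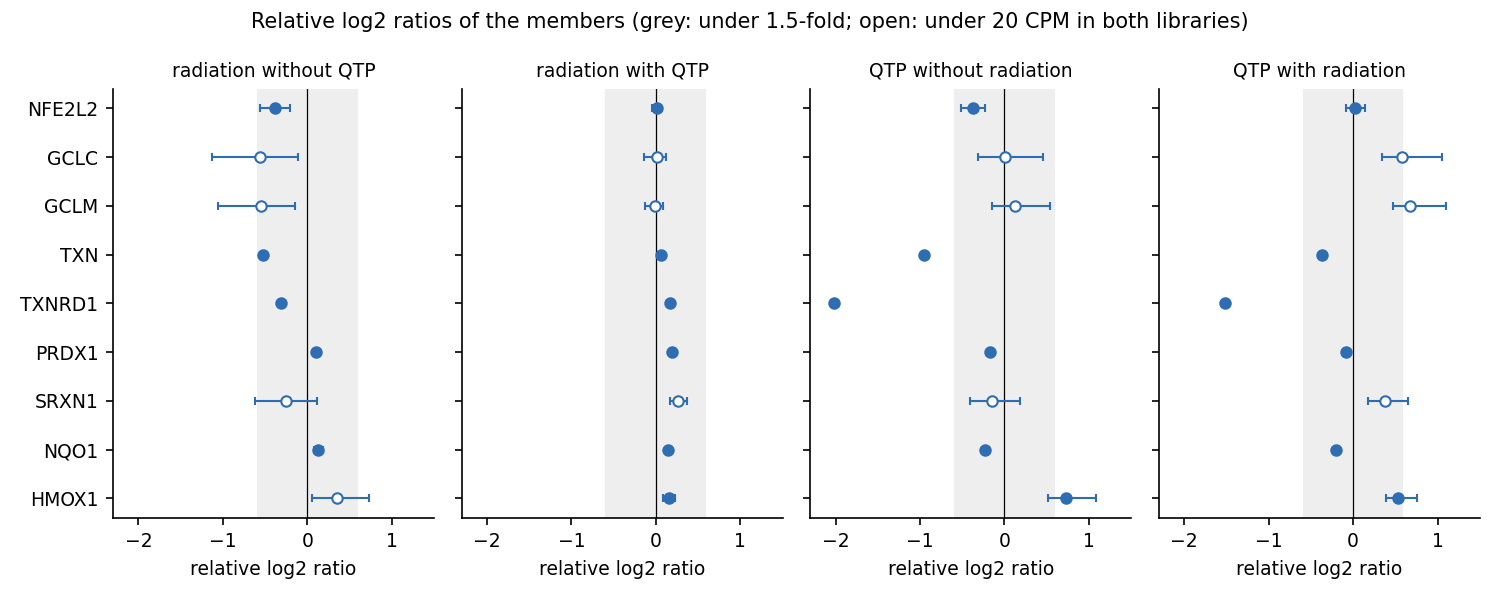
Relative log2 ratios of the 9 members in 4 comparisons, with 95% counting intervals; grey marks less than 1.5-fold and open circles mark members under 20 CPM in both libraries. TXNRD1 lies at -2.02 and -1.52 for QTP, and every tested member lies within the grey band for radiation.

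Both agents together were set against Control, a comparison that shares its libraries with those above. HMOX1 was called higher (0.88) and TXN (-0.90) and TXNRD1 (-1.85) lower among 6 members, against 7.9% of 5243 genes called higher and 8.54% lower. NFE2L2 (-0.37), NQO1 (-0.09) and PRDX1 (0.01) were not called.

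Within single cells, NQO1 and HMOX1 varied more than most other genes of their level in both libraries with QTP. Each cell of Drug and Drug_Radiation was thinned to 6000 UMIs, and the variance over the mean was set beside that of genes within 1.25-fold of the same level. For NQO1 it was 2.06 in Drug and 2.04 in Drug_Radiation, above 91 of 96 and 81 of 85 such genes, whose medians were 1.23 and 1.20. For HMOX1 it was 1.65 and 2.24, above 1501 of 1534 and 1468 of 1487 such genes. HMOX1 had a UMI in 11.5% of Drug cells (10.5 to 12.6%, exact Clopper-Pearson) and 12.2% of Drug_Radiation cells (11.4 to 13.0%), and single cells reached 12 and 30 UMIs. PRDX1 was even by the same measure, with 1.26 and 1.22, above 15 of 62 and 17 of 58 genes of its level. TXNRD1, at 1.29 in both, was near the medians of 1.26 and 1.25. In Drug, GCLC, GCLM and SRXN1 were also above most genes of their level, 1499 of 1638, 1548 of 1719 and 1478 of 1741. In Drug_Radiation they were above 650 of 1599, 1079 of 1692 and 493 of 1801. NFE2L2 was above 542 of 914 and 735 of 917 genes of its level in Drug and Drug_Radiation, and TXN above 23 of 34 and 23 of 35.

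Correlations across cells are described mainly for the members found in most cells, TXN, TXNRD1, PRDX1 and NQO1, since sparse counts pull those of the others towards 0. Among the others, NQO1 with HMOX1 had a Spearman correlation of 0.11 in Drug and 0.08 in Drug_Radiation at 6000 UMIs. At 6000 UMIs the Spearman correlation of PRDX1 and NQO1 was 0.19 in Drug (3802 cells) and 0.18 in Drug_Radiation (6990 cells). That of TXN with PRDX1 was 0.18 and 0.15, and that of TXN with NQO1 was 0.15 and 0.18. TXNRD1 was at -0.04 and -0.03 with PRDX1, 0.06 and 0.06 with NQO1 and 0.04 and 0.02 with TXN. These cells share a library and their original depth differed. Cells with 3 or more HMOX1 UMIs were 16 in Drug, and they held 5.81 ± 3.49 NQO1 UMIs (SD over cells) beside 4.26 ± 2.95 in the 421 cells with 1 or 2 and 3.38 ± 2.62 in the 3365 cells with no HMOX1 UMI. In Drug_Radiation the NQO1 values of the 28, 824 and 6138 corresponding cells were 4.82 ± 3.38, 3.94 ± 3.07 and 3.28 ± 2.54. TXNRD1 ran the same way, at 5.63 ± 2.58, 4.10 ± 2.26 and 3.72 ± 2.19 in Drug and 4.75 ± 2.10, 4.01 ± 2.37 and 3.63 ± 2.15 in Drug_Radiation. The spread between cells was larger than each of these differences.

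After all cells were thinned to 1000 UMIs, TXNRD1 had a UMI in 81.4% of Control cells, 78.8% of Radiation cells, 45.3% of Drug cells and 47.1% of Drug_Radiation cells. Unthinned shares were 95.5%, 99.3%, 99.9% and 99.9%. HMOX1 had a UMI in 0.848%, 1.53%, 2.29% and 2.30% of thinned cells, and in 2.86%, 9.03%, 33.0% and 33.3% of unthinned ones, where the libraries also differ in depth. NQO1 was found in 35.4%, 42.7%, 41.1% and 40.9% of thinned cells. The culture held no other cell type from which a share due to free RNA could be read.

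The wider pathway was described from 7 lists of 118 genes other than the members: regulators, glutathione, thioredoxin and peroxiredoxin, quinone and xenobiotic handling, NADPH supply, haem and iron, and superoxide and catalase. For QTP without radiation 8 of 73 tested genes were called higher and 1 lower, and for QTP with radiation 4 of 72 were called higher and 2 lower, beside the background shares given above. Radiation without QTP gave 5 higher and 3 lower of 67, and radiation with QTP gave 0 and 0 of 73. The medians of the lists together lay between -0.02 and 0.06 in the 5 comparisons.

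NADPH supply, which feeds both thioredoxin reductase and glutathione reductase, held the most calls of any list for QTP without radiation, where 4 of 10 tested genes were called higher, against 5.93% of all genes: PGD (1.09), which makes NADPH from 6-phosphogluconate, TKT (0.85), the transketolase, and the isocitrate dehydrogenases IDH1 (0.75) and IDH2 (0.70). PGD was at 42.0, 77.1, 129 and 101 CPM in Control, Radiation, Drug and Drug_Radiation, with Control the lowest. With radiation present only IDH1 (0.70) of the 10 was called higher, against 4.12% of all genes, while PGD at 0.26 and TKT at -0.04. Radiation without QTP had 2 of 9 called higher, against 6.89% of all genes, PGD (0.68) and TKT (0.80), and MTHFD1L, which like TXNRD1 holds uncounted processed pseudogenes on its own strand, lower (-0.61). PGD, TKT and MTHFD1L were named after their values were seen.

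Among the regulators, BTRC, the receptor of a ubiquitin ligase that can target phosphorylated NRF2, was at 49.95, 21.4, 10.8 and 10.5 CPM in Control, Radiation, Drug and Drug_Radiation. Control was the highest by far and the pair with QTP the lowest, and its relative ratio was -2.61 for QTP without radiation, -1.09 with radiation and -1.37 for radiation without QTP. KEAP1 was at 20.1, 35.9, 38.1 and 34.9 CPM, called higher (0.62) for radiation without QTP only, and its QTP ratios were 0.39 and -0.17. CUL3 (-0.31 and 0.33) and RBX1 (-0.29 and 0.09) were not called for QTP. BACH1, a repressor that competes for NRF2 sites, was not called without radiation (-0.04) and was below 20 CPM in both libraries with radiation. SQSTM1, the autophagy receptor that can sequester KEAP1, had relative ratios of 0.25 in both QTP arms, and NFE2L1, the related factor NRF1, had 0.40 and 0.23. DPP3, a KEAP1-binding peptidase, was called higher for QTP without radiation (0.90) and was at 0.29 with it. The small MAF gene MAFG was called higher for QTP with radiation (0.81) and was below 20 CPM in both libraries without it.

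In the glutathione list SLC3A2 was called higher for QTP without radiation (0.79) and not with it (0.27). SLC7A11 was called higher for QTP with radiation (0.79) and not without it (0.18). These genes encode the heavy and light chains of the cystine importer, and they were called together in neither arm. SLC7A11 was at 29.95, 24.6, 48.6 and 47.2 CPM, both libraries with QTP above both without it. GSTP1, a glutathione transferase, gave -0.51 and -0.19, and GGCT -0.14 and -0.47. In the thioredoxin list 0 of 13 genes were called for QTP without radiation, among them PRDX6 (-0.49), TXNRD2 (-0.08), the mitochondrial reductase, and TXN2 (0.39), the mitochondrial thioredoxin. TXNIP, the thioredoxin-binding inhibitor, was the single gene called for QTP with radiation, at -0.70. GLRX2 was called lower (-0.66) for radiation without QTP. TFRC, the transferrin receptor, was called higher in both QTP arms (0.63 and 0.67), whereas FTL, the ferritin light chain, gave -0.34 and -0.24. TRIM16 was called higher for QTP without radiation (0.83) and for radiation without QTP (0.73), and CCS, the copper chaperone of SOD1, for radiation without QTP (0.76). SOD2, the mitochondrial superoxide dismutase, gave 0.56 and 0.24 for QTP. TRIM16 and CCS were named after their values were seen.

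**Figure D4:**
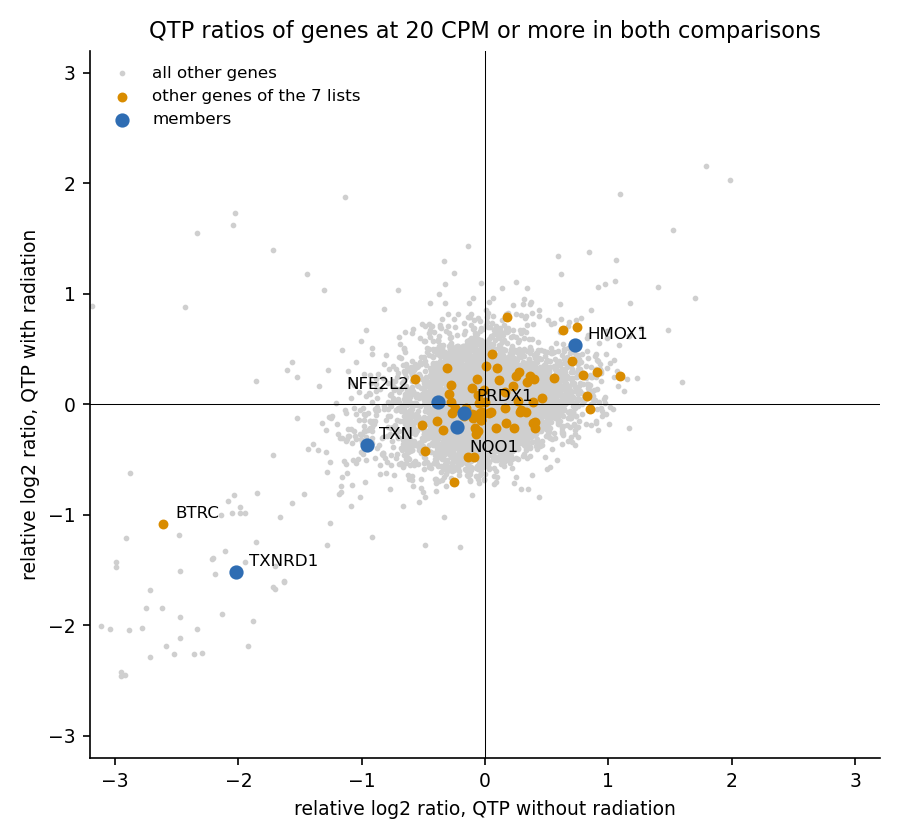
Relative log2 ratio for QTP without radiation (horizontal) against QTP with radiation (vertical) for 5112 genes at 20 CPM or more in both comparisons; 43 genes lie outside the axes. TXNRD1 and BTRC sit at the lower left, HMOX1 at the upper right, TXN to the left at -0.96 and -0.37, and NFE2L2, PRDX1 and NQO1 near the middle.

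The mean profile of the members at 20 CPM or more was nearly flat, from -0.06 in Drug_Radiation to 0.07 in Radiation on the centred log2 scale. It averages members that go opposite ways over all cells, TXNRD1 lower and HMOX1 higher with QTP, so it describes no single member. In the depth range present in every library, the relative QTP ratio of HMOX1 was -0.72 without radiation and 0.32 with it. The 5 genes nearest to the mean profile over 4 libraries were IAH1, HYPK, PSMB1, TNFRSF12A and RAN. IAH1 was at 134, 142, 134 and 129 CPM in Control, Radiation, Drug and Drug_Radiation.

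The core of the antioxidant response element, TGACNNNGC on either strand, was searched in the 250 bases before and 50 after each start in RefSeq (GRCh38.p14). It was in 13.3% of 35116 such windows. RefSeq windows were found for 7 of 9 members, 9 windows in all, and 2 members had a match: GCLM at 1 start and TXNRD1 at both of its starts. These are shown because they are the members with a match, with the match in capitals. GCLM is chr1:93909427-93909494 on the minus strand, and the TXNRD1 stretches are chr12:104215650-104215782 and chr12:104286900-104286968 on the plus strand.
GCLM: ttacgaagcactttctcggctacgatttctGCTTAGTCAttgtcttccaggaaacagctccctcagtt
TXNRD1, first start: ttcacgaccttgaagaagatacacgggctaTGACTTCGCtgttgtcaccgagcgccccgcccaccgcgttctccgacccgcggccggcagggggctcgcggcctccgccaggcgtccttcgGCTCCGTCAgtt
TXNRD1, second start: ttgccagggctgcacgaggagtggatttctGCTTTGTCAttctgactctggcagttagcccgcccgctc
Bases outside these windows were not searched, so the absence of a match does not show that a member lacks the element. A match is a description of the letters only. GCLM and TXNRD1, which share it, had QTP ratios before the median was subtracted of 0.63 and -1.52 in the arm without radiation.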

How the data were processed

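The authors deposited raw UMI counts for each gene in each cell barcode, without normalization. Per the labels' protocols, fixation and library preparation used a PIPseq V T2 kit, but a second label gives another platform, which leaves the kit unsettled. Seurat 4.3.3 and hg38 appear in the submitters' processing notes without a role. Which aligner, annotation, strand and barcode calling were used is not given in the sources used here. Barcodes held at least 1009, 1592, 6427 and 6244 UMIs in Control, Radiation, Drug and Drug_Radiation, so they were selected before deposit at different depths.

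Cells with 500 UMIs, 300 genes and under 20% mitochondrial UMIs were kept. No doublets were removed. UMIs were summed per library (8948054, 14331904, 87195885 and 141608005 nuclear-encoded UMIs) and expressed as CPM. Intervals were exact Poisson for levels, exact conditional binomial for ratios and exact Clopper-Pearson for shares, all at 95%. Interval bounds of ratios leave out the added 1 CPM, so they are not centred for low genes. Scripts were tested on simulated data. Alternatives were all barcodes, a filter of 1000 UMIs, 500 genes and 10% mitochondrial UMIs, no centring, TMM (edgeR 4.0.16), DESeq2 1.42.0 size factors, equal weight per cell, 0.1 CPM added, a 5 CPM minimum, a 2-fold size, cells of 6500 to 15000 UMIs, and cells thinned to 1000 UMIs. Gene positions are from GENCODE 29 and promoters from RefSeq.

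Named genes were the 9 members, every regulator at 20 CPM or more and, per list, genes with the highest and lowest ratios of the same sign in both arms. The members, lists and the range of 6500 to 15000 UMIs were chosen with earlier results of these data known. A gene of the NADPH supply list, and a further comparison in which the TXNRD1 difference for QTP was smaller, are not reported here.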

Additional observations from a re-analysis of the deposited data

Results flagged for a closer look

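Over all cells, the relative radiation ratios of TXN and TXNRD1 had opposite signs without and with QTP, and neither was called. For TXN the ratio was -0.52 without QTP and 0.063 with QTP, a difference of 0.58 (0.55 to 0.61, counting error only). For TXNRD1 it was -0.32 without QTP and 0.17 with QTP, a difference of 0.49 (0.46 to 0.52). With 1 library per group the difference itself was not tested. Before the median of all genes was subtracted, all 4 ratios were below 0: -0.34 and -0.12 for TXN, and -0.14 and -0.01 for TXNRD1.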

How the results depend on the processing

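With 1 library per group no library could be left out. No paired analysis was possible because every group has 1 library and no result comes from a test. The 10 counts of called members were unchanged with all barcodes, the stricter filter, TMM, DESeq2 size factors and 0.1 CPM added. Without the median subtracted, 1 member was called lower for QTP without radiation, 1 lower for both agents together and 1 higher for QTP with radiation. At a 2-fold size, QTP without radiation and both agents together each had 0 members called higher and 1 lower. A 5 CPM minimum gave 1 higher for QTP with radiation. Equal weight per cell and thinning to 1000 UMIs each gave 1 lower for radiation without QTP. Cells of 6500 to 15000 UMIs gave 0 higher for QTP without radiation and for both agents together, and 1 higher for radiation with QTP; there HMOX1 turned to -0.72 for QTP without radiation and -0.10 for both agents together. The causes of these changes were not tested. Of 45 relative ratios of members, 33 kept their sign without the median subtracted, 35 in the depth range, and 40 to 45 under the other planned settings. The alternative that adds named copies to members could not be run, since 0 such copies are counted in the files. Depth limits GCLC, GCLM, SRXN1 and HMOX1, which had 62 to 106 UMIs in Control.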

Other observations

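PRDX1P1, the processed pseudogene named after PRDX1, lies on the strand of the counted gene AL161449.2, which was at 10.1 CPM in Control and 8.37 in Radiation, against 1.41 in Drug and 1.16 in Drug_Radiation. Both libraries with QTP were far below both without it. The antisense gene AC089983.1, which overlaps TXNRD1, was at 24.7, 25.6, 47.3 and 34.3 CPM in the same order.

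Among the other 24 genes of selenoproteins and their use of selenium, a list chosen after the values of TXNRD1 were seen, 11 were tested for QTP without radiation and 1 was called lower, SELENOH at -0.64. For QTP with radiation 0 of 11 were called. GPX1 gave relative ratios of -0.24 and -0.03, and GPX4, which reduces lipid peroxides, gave -0.27 and -0.08.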
